A study of Drosophila melanogaster with 12 samples.

Results

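The genes described here encode the proteins of the mitochondrial ribosome of *Drosophila melanogaster*. Members were the protein-coding genes of the count table whose Ensembl name begins with mRpL (large subunit) or mRpS (small subunit). There were 72 of them among 17807 genes, 47 with a large and 25 with a small subunit symbol. They were spread over chromosome arms 2L (12), 2R (12), 3L (16), 3R (21) and X (11). Of these, 41 carry a number that names a homologue of a bacterial ribosomal protein and 31 a higher number, used for proteins of mitochondrial ribosomes only. *mRpL53* had 0 counts in every library, so that 71 members passed the filter on low counts. An identifier for *mRpS5* was not among those matched, and that gene was not analysed here.

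The mitochondrial ribosome translates the few mRNAs that the mitochondrial genome encodes, all of which make subunits of the respiratory chain and the ATP synthase. Its RNAs are transcribed inside the organelle, whereas its proteins are encoded in the nucleus, made in the cytoplasm and imported. The cytoplasmic ribosome, which makes all other proteins, has a separate set of protein genes, named RpL and RpS.

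Brain lobes were dissected from L3 larvae of 3 genotypes. Oregon_R brains (wildtype, the strain Oregon-R-P2 in the study's methods) are rich in neurons. Neuroblasts, the neural stem cells, are in excess in brains where *insc-Gal4* expressed *UAS-aPKC CAAX*, an atypical protein kinase C held at the membrane (neuroblast-biased). *Mettl3* null brains lack the enzyme that writes N6-methyladenosine (m6A) into mRNA, and show what the antibody binds without it. From each genotype, RNA was sequenced before immunoprecipitation with an antibody to m6A (input) and after it (meRIP), with 2 libraries in each of the 6 groups. The neuroblast-biased brains still hold neurons and glia, and the wildtype brains are a mixture of cell types.

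Input libraries held 4220420 to 10828815 counts and meRIP libraries 7870449 to 31352131. The median member had 46.5 to 149 counts in an input library and 65.0 to 287 in a meRIP library. Levels are given as CPM (counts per 1000000 counts of a library, after scaling by trimmed mean of M-values, TMM), computed for input and for meRIP separately. *Mettl3* itself lay between 2.71 and 11.1 CPM in *Mettl3* null input and between 16.9 and 36.3 CPM in the other input libraries, and *aPKC* between 437 and 532 CPM in neuroblast-biased input and between 143 and 222 CPM in the others. In input RNA all 7 neuroblast markers were higher, and all 8 neuron markers lower, in neuroblast-biased brains than in wildtype.

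Together the members took 0.0975% to 0.174% of the counts of an input library. Their summed level was 1069 and 1093 CPM in wildtype input, 1728 and 1485 CPM in neuroblast-biased input and, in input of *Mettl3* null brains, 1118 and 953 CPM. In meRIP it was 560 and 538 CPM in wildtype, 916 and 771 CPM in neuroblast-biased brains, and 721 and 548 CPM without *Mettl3*. Both neuroblast-biased libraries thus lay above the other 4 in input and in meRIP, and wildtype and *Mettl3* null brains overlapped in input. The sums were not tested. The cytoplasmic ribosomal protein genes reached 94942 to 95878 CPM in neuroblast-biased input, against 46290 to 54034 CPM in the other input libraries.

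Per kilobase of exon, the mean input level ran from 7.61 to 70.4 CPM over the 71 members with counts. The highest were *mRpL30* (70.4 CPM per kb), *mRpL12* (47.5), whose bacterial homologue forms the stalk that recruits translation factors, and *mRpL28* (40.8). Lowest were *mRpL21* (7.61), *mRpL10* (7.71) and *mRpL17* (8.82). *mRpL53* (chr2R:13954195-13955664) shares all of its annotated exon sequence with another gene on the same strand, so its counts of 0 give no measure of its RNA. Of the other members, only *mRpL13* (35.2%) and *mRpS14* (3.76%) share exon sequence with a gene on the same strand. Whether strand was used in counting is not stated, and genes on either strand cover 55.3% of the exons of *mRpS24*, 48.0% of those of *mRpS21*, 35.8% of those of *mRpS14*, 35.2% of those of *mRpL13*, 25.1% of those of *mRpS9*, 23.6% of those of *mRpL17* and 20.8% of those of *mRpL48*, whose values are uncertain for that reason.

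The 2 libraries of a group were closer in meRIP than in input. Members that differed by more than 2-fold between the libraries, after adding 0.5 CPM, numbered 17 of 71 in wildtype input, 28 in neuroblast-biased input and 26 in *Mettl3* null input. In meRIP these numbers were 7, 0 and 8. In input, 8 different members had 0 counts in 1 library of a group and 11 to 257 counts in the other. These were *mRpS18C* in wildtype, *mRpL10*, *mRpL14*, *mRpL42*, *mRpS21* and *mRpS6* in neuroblast-biased, and *mRpL14*, *mRpL52* and *mRpS28* in *Mettl3* null brains. No member did so in meRIP. A member's input value can therefore rest on a single library, and the meRIP values below have the smaller error.

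What the members share beyond their names was sought in the DNA around the most upstream annotated start of each gene, from 250 bases before to 50 bases after. The E-box CAGCTG, a palindrome and therefore present on both strands, stood in this window in 40 of the 72 members (55.6%). Among all 13865 protein-coding genes the share was 17.6%, and among the 92 cytoplasmic ribosomal protein genes 9.78%. In most of these members the motif lay near the start. Its first base was within 50 bases of the start in 35 members, 48.6% of the 72, compared with 9.29% of all protein-coding genes, and its median position was 4 bases after the start, against 46 bases before it for all genes that held it. Members with and without the motif changed in meRIP (below). *mRpL54*, which changed and holds the motif, is not shown. The windows of 6 other members that changed in meRIP and hold the motif are shown. Each has 30 bases from the strand of the gene, with the motif in capitals.
mRpL28: ttcacatacgaaCAGCTGttttttccaaac
mRpL45: aatcacgtttgcCAGCTGgtcgcgttagtg
mRpL40: cagcaacaaaaaCAGCTGttcgtacattac
mRpL48: gctgcacgccatCAGCTGgtgatataacct
mRpS6: ctttccttgcatCAGCTGttaacactatca
mRpL33: gataggcgcagtCAGCTGttcttcgttcct
These lie at chr2L:4973979-4974008, chr3R:22618471-22618500, chr3R:11407929-11407958, chr2L:1710471-1710500, chr3L:4364552-4364581 and chrX:4322207-4322236 of the Release 6 genome (RefSeq sequence), the last on the minus strand and the others on the plus strand. The motif began 15, -9, 23, 21, 14 and 7 bases from the annotated start, in the same order, where negative values are upstream.

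**Figure D1:**
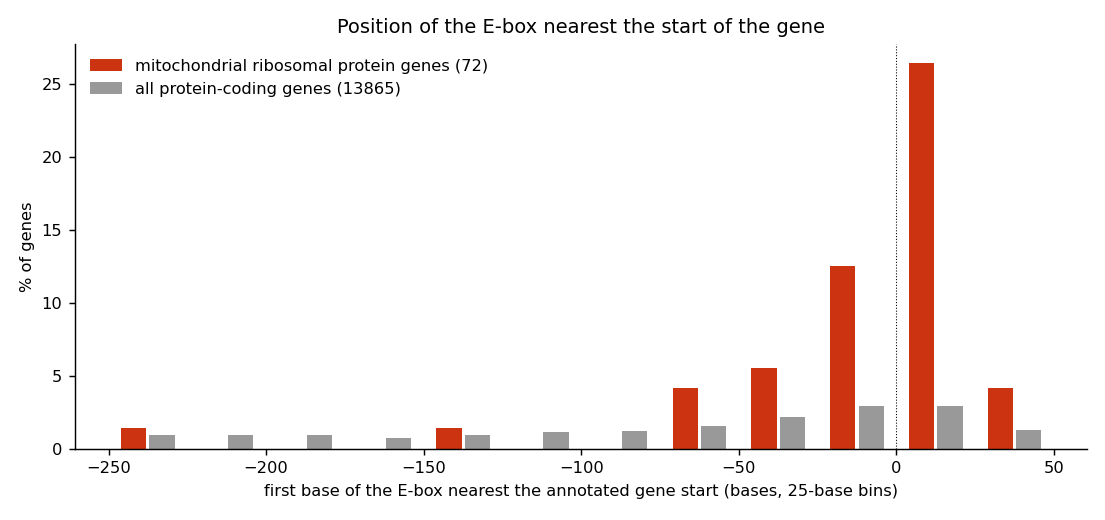
Position of the E-box nearest the annotated start of the gene, in bins of 25 bases (x axis, bases, negative is upstream), as the percentage of genes in each bin (y axis). The 72 mitochondrial ribosomal protein genes (red) peak in the first 25 bases after the start, at 26.4%, where all 13865 protein-coding genes (grey) reach 2.91%.

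The cytoplasmic ribosomal protein genes were marked by another motif. TCTTT is part of the pyrimidine-rich initiator from which transcripts of such genes start. It began within about 5 bases of any annotated start of the gene, on its strand, in 48.9% of them and in 2.24% of all protein-coding genes. The other motifs were searched at the most upstream start alone. TCTTT was found at a start in 0 of the 72 members. Windows of 4 cytoplasmic genes are shown for comparison with those above, with TCTTT in capitals.
RpL3: gtcggaatcgttTCTTTtccgttttacacg
RpL32: ccaccagcttttTCTTTtcgcttctggttt
RpS3: ggcacactggccTCTTTcttttctgcgcac
RpL13A: caacttccgcctTCTTTccgtgcggttcgt
They lie at chr3R:11221884-11221913, chr3R:30046142-30046171 (minus strand), chr3R:23358802-23358831 and chr3R:5624466-5624495. The DNA replication-related element TATCGATA, also a palindrome, was found in the window of 20.8% of the members, 30.4% of the cytoplasmic ribosomal protein genes and 9.26% of all genes. The E-box CACGTG was found in 6.94%, 8.70% and 4.20%. These are matches of letters, and no binding was measured.

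Neuroblast-biased and wildtype input RNA was compared to ask whether the mRNAs differ between the stem cell-rich and the neuron-rich brain. In bulk tissue, fewer cells of a type and less RNA per cell cannot be told apart. By limma-voom over all genes tested, 0 of 71 members were higher and 0 lower at an adjusted p under 0.05, termed called from here on, where 5.28% and 8.09% of all genes tested were higher and lower. At an unadjusted p under 0.05 there were 7 members, against 2529 of 9423 genes tested. DESeq2 called 7 members, where over all genes it called 1071 higher and 1474 lower. edgeR called 0 members, where over all genes it called 473 higher and 822 lower. The log2 fold change (log2FC) was positive for 48 members, with a median of 0.30, against -0.17 over all genes. The median of the members was 0.61 without neuroblast-biased input replicate 2 and between 0.23 and 0.40 without any other library. Both neuroblast-biased libraries exceeded both wildtype libraries for 27 members and lay below both for 1, where 24.9% and 32.4% of all genes did so.

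The leading member in input was *mRpL28*, a homologue of bacterial L28. Its input levels were 31.4 and 29.1 CPM in wildtype, 103 and 64.7 CPM in neuroblast-biased brains, and 39.4 and 19.0 CPM without *Mettl3*. The neuroblast-biased libraries overlapped with neither other genotype. The log2FC was 1.40 over wildtype (SE 0.46, adjusted p 0.0592), short of the threshold, and 1.52 over *Mettl3* null (SE 0.39, adjusted p 0.0157). *mRpL1*, whose bacterial homologue forms a mobile stalk of the large subunit, had 35.4 and 23.0, 43.3 and 59.8, and 22.9 and 12 CPM in the same order, and again the neuroblast-biased libraries were the highest. *mRpL23*, a protein of the rim of the exit tunnel in bacteria, had 10.2 and 5.32, 41.3 and 34.9, and 10.2 and 8.30 CPM. *mRpL28*, *mRpL1* (log2FC 1.66, SE 0.46, adjusted p 0.0228) and *mRpL23* (2.02, SE 0.57, adjusted p 0.0258) were the 3 members called higher in neuroblast-biased input when *Mettl3* null input was the reference. None was lower, and 7.9% and 9.26% of all genes tested were higher and lower in that comparison. These calls were not firm. Over all genes edgeR called 497 higher and 821 lower in this comparison, and DESeq2 1169 and 1500. edgeR called 0 members and DESeq2 10, and without wildtype input replicate 1 or *Mettl3* null input replicate 2 the count was 0, without wildtype input replicate 2 it was 1, and without neuroblast-biased input replicate 2 it was 5.

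Loss of *Mettl3* was not accompanied by a called change of any member in input RNA. Of 71 members 0 were higher and 0 lower in *Mettl3* null than in wildtype input by limma-voom, as by edgeR and DESeq2. At an unadjusted p under 0.05 there was 1 member, against 595 of 9423 genes tested. The share of all genes called was 0.117% and 0.138%. The median log2FC of the members was 0.00. The SE of a single member was large, with a median of 0.85 on the log2 scale.

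Between the neuroblast-biased and the wildtype brain, more members, and more of all genes, were called in meRIP than in input. Of 71 members, 17 were higher in neuroblast-biased brains and 1, *mRpL33*, was lower. Over all genes tested 19.7% were higher and 23.8% lower. The share of members called higher was thus near that of all genes, and the share called lower was smaller. The log2FC was positive for 63 members, and its median was 0.46, against 0.01 over all genes. Both neuroblast-biased libraries exceeded both wildtype libraries for 43 members and were below both for 2, where 36.6% and 36.2% of all genes were so placed. The median was between 0.41 and 0.49 in all 8 other scalings, filters and tests. Members with large subunit symbols (11 of 46 higher, median 0.50) and with small subunit symbols (6 of 25, median 0.41) are given without a test of their difference. Among proteins of mitochondrial ribosomes only, 10 of 30 were higher, and among homologues of bacterial proteins 7 of 41, a difference between the groups that was not tested.

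**Figure D2:**
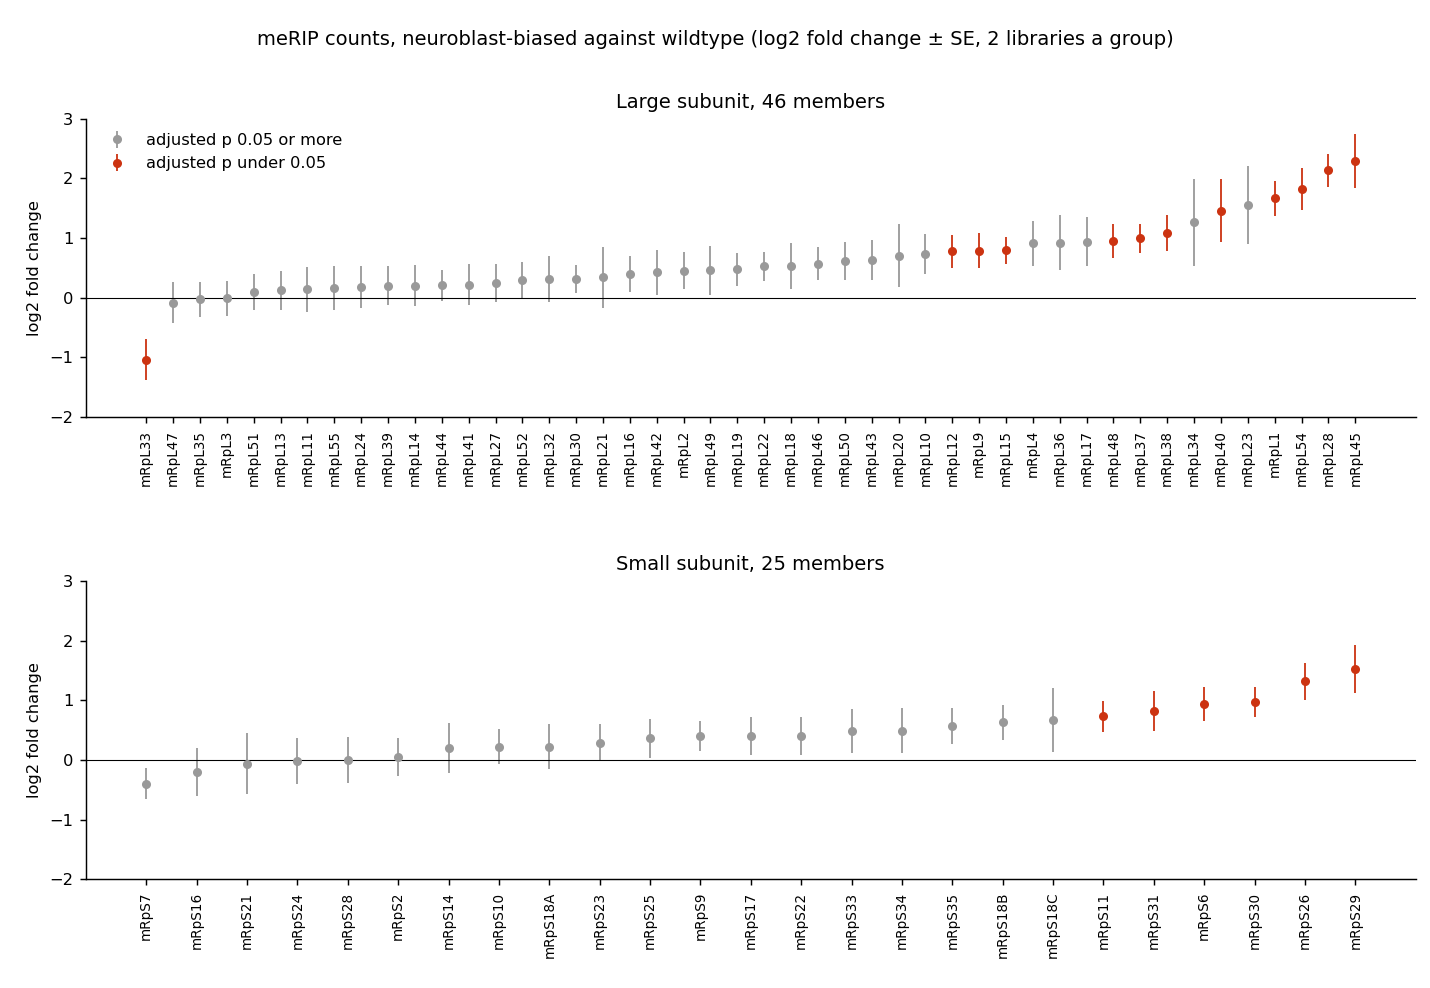
log2 fold change of meRIP counts in neuroblast-biased against wildtype brains (y axis, ± SE from limma-voom, 2 libraries a group). The 46 genes tested with large and 25 with small subunit symbols are shown in order of the change. Red points passed an adjusted p of 0.05, 17 above 0 and *mRpL33* below it, and most of the other points also lie above 0.

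Among large subunit homologues of bacterial proteins, *mRpL28* (FBgn0031660, chr2L:4973976-4975316) was at 10.1 and 10.2 CPM in wildtype meRIP and at 53.4 and 37.0 CPM in neuroblast-biased meRIP, a rise of 2.13 on the log2 scale (SE 0.27, adjusted p 3.52e-07). *mRpL1* (FBgn0037566, chr3R:8301440-8302770) went from 8.10 and 9.23 to 33.9 and 21.8 CPM (log2FC 1.67, SE 0.29, adjusted p 3.99e-05). In both genes the lower neuroblast-biased library was more than 2-fold above the higher wildtype library, and in input too both neuroblast-biased libraries exceeded both wildtype ones. *mRpL15* rose from 23.5 and 19.5 to 37.8 and 36.8 CPM (log2FC 0.79, SE 0.23, adjusted p 0.00755). *mRpL12*, which in *Drosophila* is required for growth driven by Cyclin D and Cdk4, rose from 20.5 and 12 to 26.4 and 28.7 CPM (log2FC 0.77, SE 0.28, adjusted p 0.0262). *mRpL9* rose from 6.63 and 8.03 to 12.3 and 12.6 CPM (log2FC 0.78, SE 0.30, adjusted p 0.0329). In none of the 5 did the groups overlap. The same libraries gave the calls, so this is no further support, here or for the called genes below. *mRpL23* lay just outside the threshold, with 2.66 and 0.525 CPM in wildtype, against 3.01 and 5.60 CPM in neuroblast-biased meRIP (log2FC 1.55, SE 0.65, adjusted p 0.0547).

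The single member that fell, *mRpL33* (FBgn0040907, chrX:4321764-4322231), is a small homologue of bacterial L33. Its meRIP level was 11.7 and 12.5 CPM in wildtype, 4.12 and 8.72 CPM in neuroblast-biased brains, and 9.87 and 4.6 CPM without *Mettl3*. The neuroblast-biased libraries were both below the wildtype ones, although they differed from each other by more than 2-fold. The log2FC was -1.04 (SE 0.34, adjusted p 0.0157). edgeR and DESeq2 did not call it, and the call was lost without either wildtype meRIP library or without neuroblast-biased meRIP replicate 1, with a log2FC between -1.56 and -0.45 over 14 alternatives. In input its libraries overlapped, with 8.27 and 5.10 CPM in wildtype, against 9.76 and 5.17 CPM in neuroblast-biased brains.

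Proteins found only in mitochondrial ribosomes supplied 6 further large subunit genes. *mRpL45* (FBgn0263863, chr3R:22618492-22619826), whose human homologue lies at the exit tunnel and holds the ribosome at the inner membrane, was at 4.29 and 1.43 CPM in wildtype meRIP and at 15.7 and 11 CPM in neuroblast-biased meRIP. Its log2FC of 2.28 (SE 0.45, adjusted p 0.000179) was the largest of the members. In meRIP the wildtype libraries were the lowest of the 6. In input they had 17.9 and 12.6 CPM, below the 27.1 and 21.4 CPM of neuroblast-biased brains but overlapping with the 11.8 and 19.9 CPM measured without *Mettl3*. *mRpL54* rose from 4.08 and 4.88 to 18.4 and 13.2 CPM (log2FC 1.82, SE 0.36, adjusted p 0.000148). *mRpL40* rose from 4.73 and 0.901 to 7.71 and 5.48 CPM (log2FC 1.46, SE 0.53, adjusted p 0.0262). The wildtype values of *mRpL40* differed by more than 5-fold, 12 counts in replicate 2 against 87 in replicate 1, and neither edgeR nor DESeq2 called it.

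*mRpL37* (FBgn0261380, chr3R:10782563-10784092) was one of the most precisely measured members. It stood at 19.0 and 16.2 CPM in wildtype meRIP, 36.6 and 33.8 CPM in neuroblast-biased meRIP and 23.8 and 17.3 CPM in *Mettl3* null meRIP. The rise over wildtype was 0.99 on the log2 scale (SE 0.24, adjusted p 0.00157). In input the genotypes overlapped, with 14.2 and 22.6 CPM in wildtype, against 15.2 and 17.4 CPM in neuroblast-biased brains. *mRpL38* rose from 8.86 and 11.6 to 28.1 and 15.9 CPM (log2FC 1.09, SE 0.31, adjusted p 0.00519). *mRpL48*, with exons covered in part by another gene, rose from 13.8 and 11.5 to 28.7 and 20.9 CPM (log2FC 0.95, SE 0.29, adjusted p 0.00807). The groups did not overlap in these genes either.

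Of the members with small subunit symbols, *mRpS29* and *mRpS26* rose most. *mRpS29*, the GTP-binding protein known in mammals as death-associated protein 3, went from 4.83 and 2.25 to 11.1 and 9.15 CPM (log2FC 1.53, SE 0.40, adjusted p 0.00273). *mRpS26* (FBgn0036774, chr3L:18106579-18107499) went from 6.90 and 5.48 to 17.4 and 13.9 CPM (log2FC 1.32, SE 0.31, adjusted p 0.00101). For *mRpS26* the input libraries overlapped, at 16.8 and 15.7 CPM in wildtype, against 16.2 and 23.7 CPM in neuroblast-biased brains. *mRpS30*, which in mammals sits in the large subunit in spite of its name, rose from 16.6 and 13.2 to 33.4 and 25.9 CPM (log2FC 0.98, SE 0.25, adjusted p 0.00268). *mRpS6* rose from 8.26 and 6.68 to 14.4 and 14.5 CPM (log2FC 0.94, SE 0.29, adjusted p 0.0104), and *mRpS11* from 12.6 and 14.1 to 22.4 and 21.8 CPM (log2FC 0.74, SE 0.26, adjusted p 0.0236). *mRpS31* was the last to pass, from 6.95 and 5.40 to 13.5 and 8.84 CPM (log2FC 0.82, SE 0.33, adjusted p 0.0484). None of the 6 overlapped between the groups, in the same libraries that gave the calls.

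**Figure D3:**
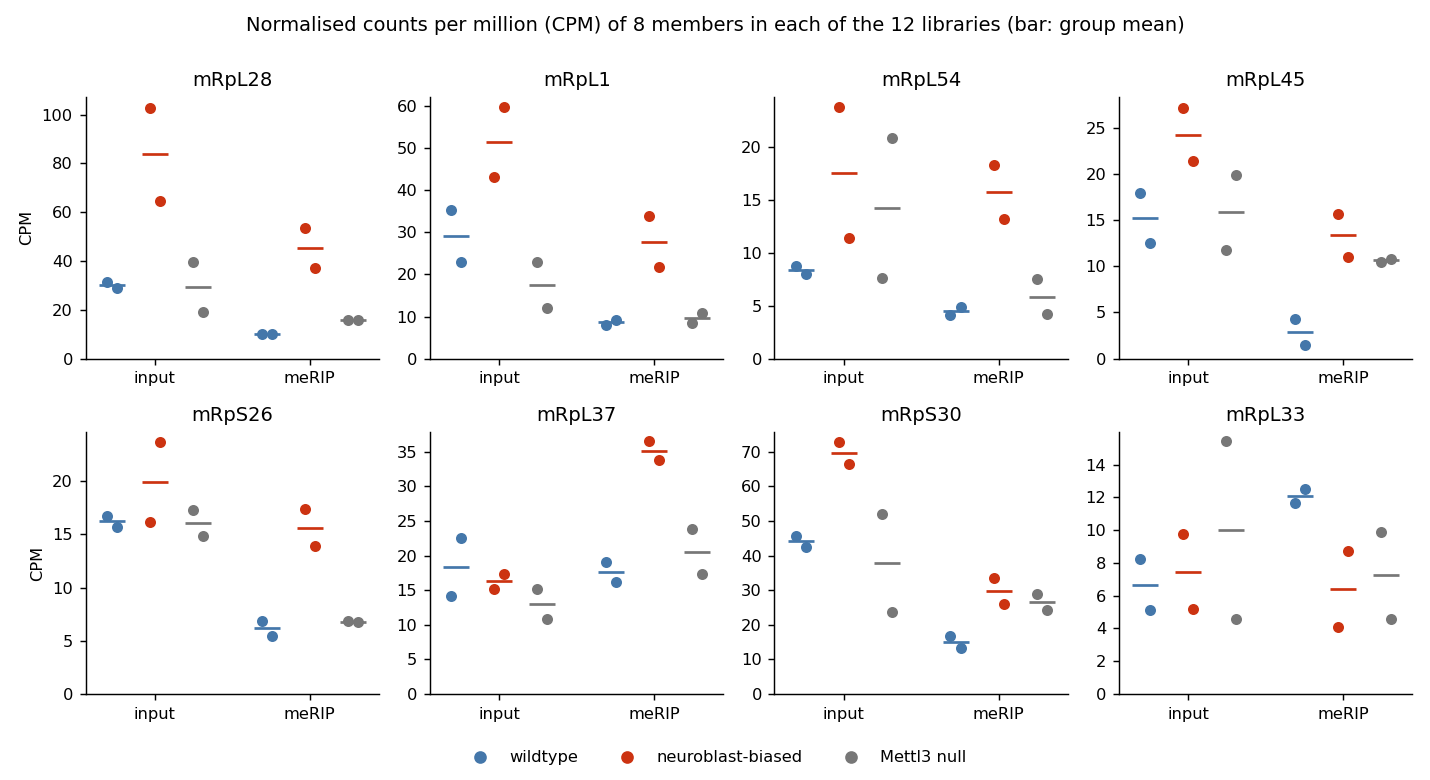
CPM (y axis, scale set per gene) of 8 members in each library (points) with the group mean (bar), in input and in meRIP, for wildtype (blue), neuroblast-biased (red) and *Mettl3* null (grey) brains. Neuroblast-biased meRIP libraries lie above both wildtype meRIP libraries for 7 of the genes and below them for *mRpL33*, while input libraries overlap for *mRpS26*, *mRpL37* and *mRpL33*.

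Other members named for their role did not pass the test. *mRpS35* had 7.23 and 6.38 CPM in wildtype, against 11.1 and 9.27 CPM in neuroblast-biased meRIP (log2FC 0.57, SE 0.31, adjusted p 0.130), and *mRpS22* had 5.92 and 6 against 7.75 and 8.13 CPM (log2FC 0.41, SE 0.32, adjusted p 0.311). The 3 genes for S18 proteins, which arose from 1 bacterial homologue, had log2FC of 0.22 (*mRpS18A*, SE 0.37), 0.63 (*mRpS18B*, SE 0.29) and 0.67 (*mRpS18C*, SE 0.53), with adjusted p of 0.649, 0.0779 and 0.319. The mitochondrial ribosomal proteins with other names, not counted among the members, were *tko*, the S12 homologue in which mutants are sensitive to mechanical shock, and *bonsai*, the S15 homologue. In meRIP *tko* had 3.86 and 4.95 CPM in wildtype, against 4.25 and 4.85 CPM in neuroblast-biased brains, and *bonsai* had 13.8 and 15.2 against 21.9 and 16.3 CPM (adjusted p 0.899 and 0.226).

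Without wildtype meRIP replicate 2, fewer members and fewer of all genes were called between neuroblast-biased and wildtype meRIP. The median log2FC was then 0.41 over the members and -0.01 over all genes. *mRpL28*, *mRpL1*, *mRpL37*, *mRpL45*, *mRpL54* and *mRpS26* were called in all 14 alternatives. *mRpL15*, *mRpS29*, *mRpS30* and *mRpS6* kept the call in 13, and *mRpL38* and *mRpL48* in 12. *mRpL12* kept it in 10, *mRpL40* and *mRpS11* in 9, *mRpL33* in 8, *mRpL9* in 7 and *mRpS31* in 6. Markers of other cell types and of tissues outside the brain moved with this comparison. The 6 salivary gland markers summed to 417 to 485 CPM in wildtype and 2.42 to 2.45 CPM in neuroblast-biased meRIP, the 6 fat body markers to 39.9 to 56.8 and 4.42 to 6.34 CPM, and the 3 ring gland markers to 81.0 to 91.3 and 14.0 to 14.6 CPM. The 5 glia markers summed to 706 to 753 CPM in wildtype and 451 to 471 CPM in neuroblast-biased meRIP, and the 5 muscle markers to 17.8 to 23.4 and 7.42 to 9.74 CPM, while the 3 hemocyte markers overlapped. In input, all 6 salivary gland markers were at 0 in both neuroblast-biased libraries and summed to 213 to 220 CPM in wildtype. Their part in the result was not tested.

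Cytoplasmic ribosomal protein genes were set beside the members as the other large set of ribosomal proteins. In input, 79 of 85 were higher in neuroblast-biased brains and 0 lower, relative to wildtype, with a median log2FC of 0.96. In meRIP 68 of 84 were higher and 0 lower, with a median of 1.17. The median SE of a single gene in input was 0.13 for this set and 0.84 for the members, whose levels were far lower. The change in input and the change in meRIP went together across the cytoplasmic genes (Pearson's r 0.61, Spearman's rho 0.65, n = 84) and less so across the members (r 0.19, rho 0.20, n = 71). Over all 8943 genes with both values r was 0.66. These are descriptions across genes, which share their libraries and are not independent, and the input and meRIP libraries of a genotype came from the same RNA according to the study. Of the members, 43 had a positive log2FC in both kinds of library, 20 in meRIP alone, 5 in input alone and 3 in neither.

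**Figure D4:**
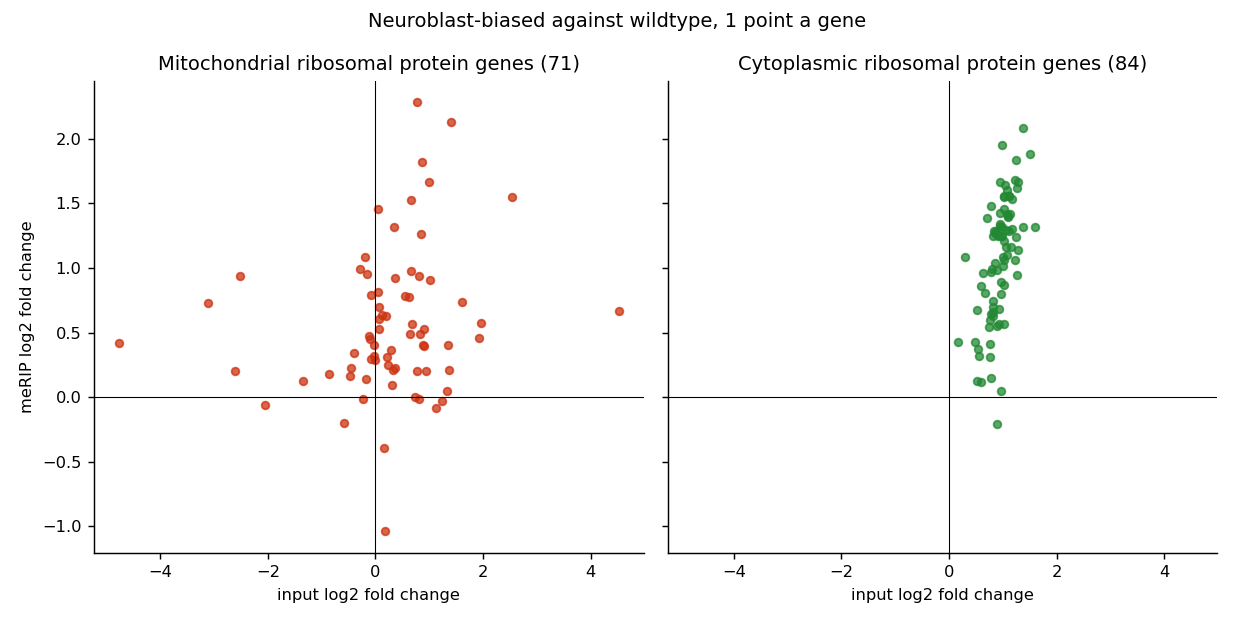
log2 fold change of neuroblast-biased against wildtype brains in input (x axis) and in meRIP (y axis), 1 point a gene, for 71 mitochondrial (left, red) and 84 cytoplasmic (right, green) ribosomal protein genes. Mitochondrial members spread widely along the input axis, and 63 of 71 lie above 0 on the meRIP axis.

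To ask whether immunoprecipitation of the members depended on *Mettl3*, meRIP counts were compared with those of *Mettl3* null brains. In wildtype, 0 of 71 members were higher than in *Mettl3* null meRIP, compared with 16.6% of all genes tested, and 3 were lower, compared with 6.11%. The median log2FC was -0.16 over the members and -0.05 over all genes. It rested on single libraries, being 0.00 without *Mettl3* null meRIP replicate 1, -0.48 without its replicate 2 and -0.34 without wildtype meRIP replicate 1. By the same comparison, 5 of 6 transcripts used as examples of m6A (*mnb*, *fra*, *otk*, *Sp1*, *run* and *CycD*) were higher in wildtype. The study chose these transcripts on the same samples, so they are not independent of them. The lower members were *mRpL45*, *mRpS30* and *mRpL40*, 3 of those that were higher in neuroblast-biased than in wildtype brains. *mRpL45* had 10.4 and 10.8 CPM in *Mettl3* null meRIP, so wildtype was lower by a log2FC of -1.96 (SE 0.47, adjusted p 0.00259). *mRpS30*, at 28.9 and 24.1 CPM in *Mettl3* null meRIP, had a log2FC of -0.84 (SE 0.27, adjusted p 0.0214), and *mRpL40*, at 7.46 and 6.24 CPM, one of -1.55 (SE 0.55, adjusted p 0.0402). The count of 3 became 0 without wildtype meRIP replicate 2, 1 without *Mettl3* null meRIP replicate 1 and 6 without *Mettl3* null meRIP replicate 2. Scaling by library size alone shifted the median of all genes to -0.63 and that of the members to -0.74. It gave 17 lower members and 0 higher, where 2962 and 896 of 9493 genes tested were lower and higher. Markers moved with this comparison too. The salivary gland markers summed to 417 to 485 CPM in wildtype meRIP and 17.3 to 31.6 CPM without *Mettl3*, the ring gland markers to 81.0 to 91.3 and 8.97 to 9.71 CPM, the 5 glia markers to 706 to 753 and 1370 to 1427 CPM and the neuroblast markers to 945 to 977 and 553 to 566 CPM. The neuron and fat body markers overlapped. Their part in the result was not tested.

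In neuroblast-biased brains 9 of 71 members were higher than in *Mettl3* null meRIP and 0 lower, where 20.6% and 18.2% of all genes tested were higher and lower. The median log2FC of the members was 0.32 with TMM factors and -0.22 with library size alone, under which the median of all genes was -0.50, so the direction over the list depends on the scaling. With TMM factors it was 0.02 without *Mettl3* null meRIP replicate 2 and 0.54 without its replicate 1. Without *Mettl3*, *mRpL28* stood at 15.7 and 15.8 CPM (log2FC 1.5, SE 0.25, adjusted p 2.81e-05) and *mRpL1* at 8.57 and 10.8 CPM (log2FC 1.54, SE 0.29, adjusted p 0.00011). Both were called in all 14 alternatives, library size alone included. *mRpL54* at 7.5 and 4.19 CPM (log2FC 1.34, SE 0.33, adjusted p 0.00223), *mRpS26* at 6.83 and 6.75 CPM (1.19, SE 0.30, adjusted p 0.00253) and *mRpL37* (0.75, SE 0.24, adjusted p 0.0150) lost the call with library size alone. The log2FC of *mRpS18B* (0.79, SE 0.30), *mRpL4* (0.998, SE 0.38), *mRpS11* (0.68, SE 0.26) and *mRpL43* (0.92, SE 0.37) had adjusted p from 0.0390 to 0.0485, and each of these calls was lost in at least 9 of 14 alternatives. With library size alone, 2 members were higher and 3 lower, where 800 and 3167 of 9493 genes tested were. Leaving out wildtype meRIP replicate 1 or neuroblast-biased meRIP replicate 1 left 5 called members, and leaving out either *Mettl3* null meRIP library left 4. All 9 genes had a higher mean in neuroblast-biased than in wildtype meRIP, and the comparisons share the neuroblast-biased libraries. Of the 9, *mRpL28*, *mRpL1*, *mRpL54*, *mRpS26*, *mRpL37* and *mRpS11* were also called over wildtype. The other members called higher than in wildtype were not called higher than in *Mettl3* null meRIP.

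The meRIP to input ratio takes the abundance of each mRNA into account. As log2 of the group means in CPM plus 0.5, scaled over all 12 libraries, its median over the members was -0.39 in wildtype, -0.26 in neuroblast-biased brains and -0.19 without *Mettl3*. The 6 m6A examples of the study had medians of 1.69, 1.77 and 0.09. The medians over all genes were -0.10, 0.12 and 0.02. The sign without *Mettl3* depends on the summary and on single libraries: in the fitted model the medians of the members were -0.39, -0.13 and 0.05, and the last was -0.22 without either *Mettl3* null input replicate 2 or meRIP replicate 1, 0.16 without input replicate 1 and 0.21 without meRIP replicate 2. In neuroblast-biased brains the fitted median was -0.32 without input replicate 2, -0.25 without meRIP replicate 1 and -0.02 without meRIP replicate 2, and in wildtype it was -0.21 without meRIP replicate 2. The ratio was above 0 for 19 of 71 members in wildtype, 25 in neuroblast-biased brains and 32 without *Mettl3*.

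**Figure D5:**
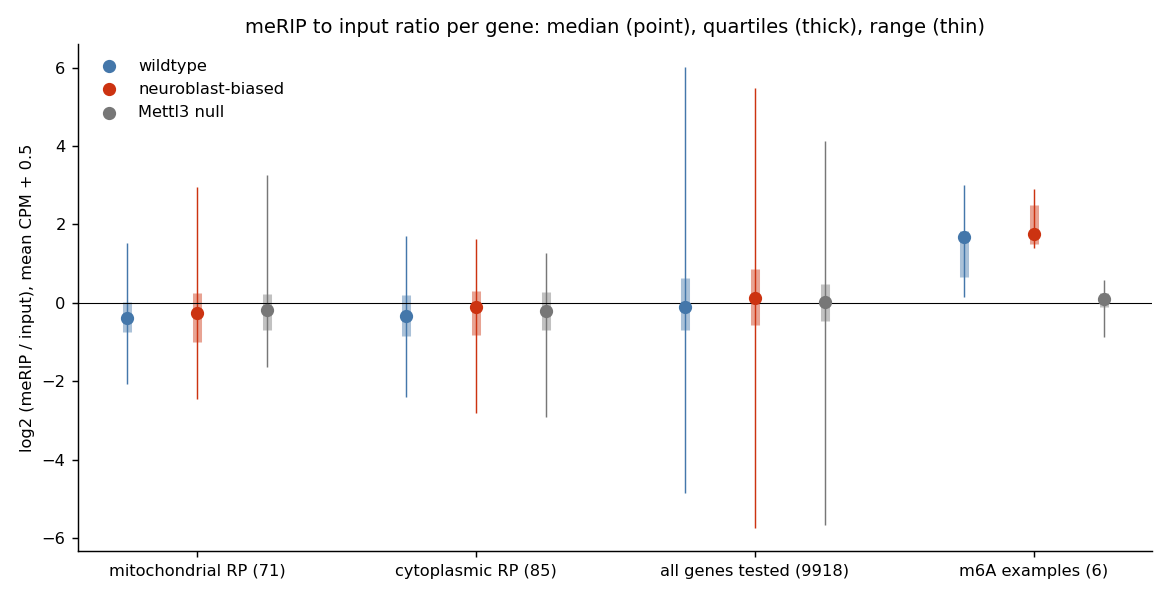
log2 of the meRIP to input ratio (y axis, mean CPM of 2 libraries plus 0.5) in wildtype (blue), neuroblast-biased (red) and *Mettl3* null (grey) brains, with the median (point), quartiles (thick bar) and range (thin line) over the genes of each list. The medians of the 71 mitochondrial ribosomal protein genes lie between -0.39 and -0.19 (in the fitted model the median without *Mettl3* was 0.05), and only the 6 m6A examples have medians well above 0 in the genotypes with *Mettl3*.

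Tested in a model over both kinds of library, the ratio of 1 member, *mRpL52*, was lower in wildtype with *Mettl3* null as the reference, and 0 were higher, where 0.413% and 5.22% of all genes tested were lower and higher. The *Mettl3* null input libraries had 31 and 0 counts of *mRpL52*, and the other 4 input libraries 54 to 129. In meRIP the genotypes overlapped, at 11.7 and 8.63 CPM (wildtype) and 15.1 and 8.79 CPM (*Mettl3* null). The log2FC of the ratio was -5.62 (SE 1.56, adjusted p 0.0469), and the adjusted p ran from 0.0300 to 0.251 over 20 alternatives, 14 of which lost the call. Among them were the fits without *Mettl3* null input replicate 2, which held the 0 counts, and without either wildtype input library. The call was also lost without any wildtype or *Mettl3* null meRIP library and without neuroblast-biased meRIP replicate 2. In all of these fits except the last, fewer of all genes were called as well. edgeR, DESeq2 and the fit with the replicate number as a block lost the *mRpL52* call too. For neuroblast-biased against *Mettl3* null brains 0 members were called by limma-voom and by edgeR and 1 by DESeq2. Over all genes DESeq2 called 750 higher and 120 lower. At an unadjusted p under 0.05 there were 5 members, against 1835 of 9918 genes tested. By limma-voom 4.46% of all genes tested were called higher and 0.242% lower. The count was 3 without neuroblast-biased input replicate 2 and 1 without *Mettl3* null input replicate 1.

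The direct comparison of the ratio between neuroblast-biased and wildtype brains asked whether immunoprecipitation changed beyond abundance. By limma-voom 0 members were called, as were 0% of all genes higher and 0% lower. edgeR and DESeq2 called 0 members. At an unadjusted p under 0.05 there were 3 members, against 674 of 9918 genes tested. Thus the rise of the 17 members in meRIP was not shown to exceed their change in input. Nor were the changes shown to be equal, since the SE of the ratio ran from 0.50 (*mRpS30*) to 1.84 (*mRpS6*) over these 17 members. The log2FC of the ratio was 0.76 for *mRpL28* (SE 0.58, adjusted p 0.781), 0.73 for *mRpL1* (SE 0.58, adjusted p 0.791) and 1.28 for *mRpL37* (SE 0.58, adjusted p 0.692).

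Within a genotype, *mRpL2* was the 1 member with meRIP below input in wildtype (log2FC -1.48, SE 0.44, adjusted p 0.0254), with 0 above, where 5.79% and 14.5% of all genes tested were below and above. That call was lost with the replicate block, which left 0 members called, without wildtype input replicate 2 and without any of the 6 meRIP libraries, and without *Mettl3* null or neuroblast-biased input replicate 1 or 2 the count was 2 or 3. In neuroblast-biased brains, with library size alone, 1 member was above input and 25 below, where 822 and 2725 of 9918 genes tested were. With TMM factors 3 members were above and 8 below, against 17.5% and 8.13% of all genes tested. *mRpL37* (log2FC 1.71, SE 0.39, adjusted p 0.00492), *mRpL15* (1.48, SE 0.43, adjusted p 0.0202) and *mRpL42* (4.71, SE 1.32, adjusted p 0.0161) were above. For *mRpL42* the input counts were 0 and 11, so the size of its change is not well set. *mRpL23* (-2.64, SE 0.46, adjusted p 0.000554) and *mRpS22* (-1.95, SE 0.38, adjusted p 0.00153) were below and kept their calls in all 20 alternatives. *mRpS28*, *mRpS35*, *mRpL41*, *mRpL39*, *mRpL3* and *mRpL16* were below as well, with log2FC from -2.26 to -1.07 and adjusted p from 0.0173 to 0.0421. Without neuroblast-biased input replicate 2 the count was 20 in place of 11, without neuroblast-biased meRIP replicate 1 or 2 and input replicate 1 it was 5, 4 and 5, and without wildtype meRIP replicate 2 it was 7.

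The *Mettl3* null ratio measures the antibody background. There 2 members were above input and 0 below, against 4.14% and 1.45% of all genes tested. These were *mRpL52* (log2FC 5.80, SE 1.43, adjusted p 0.0287), with the low input counts given above, and *mRpL48* (2.19, SE 0.61, adjusted p 0.0489), which had 7.90 and 5.69 CPM in *Mettl3* null input against 17 and 20.1 CPM in wildtype input. With the replicate block 0 members were called. The count fell to 0 or 1 without any wildtype or *Mettl3* null library other than *Mettl3* null input replicate 1 or without either neuroblast-biased meRIP library, and rose to 5 without either neuroblast-biased input library.

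In fly mRNA, m6A lies mainly in 5′ UTRs, within sequences that contain AAAC. The median 5′ UTR of the members, taken over each gene's annotated transcripts, was 85.5 bases, compared with 125 bases for all 13365 protein-coding genes with an annotated 5′ UTR and 70.0 bases for the cytoplasmic ribosomal protein genes. AAAC occurred in the 5′ UTR of 62.5% of the members, 68.8% of all genes and 47.8% of the cytoplasmic set. The 605 genes whose meRIP to input ratio was higher than in *Mettl3* null brains in either genotype had a median of 599 bases, and 98.5% held AAAC. Per 100 bases of 5′ UTR the mean number of AAAC was 0.984 in the members, 0.926 in all genes and 1.15 in those 605. Members with CAGCTG in the window around the start had a median log2FC in meRIP of 0.41 between neuroblast-biased and wildtype brains, with 6 of 39 higher and 1 lower, and members without it 0.65, with 11 of 32 higher and 0 lower. This difference was not tested.

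Other nuclear genes that serve mitochondrial translation were described from lists of the pathway. Of 8 translation factors tested in meRIP, 4 were higher in neuroblast-biased brains than in wildtype and 0 lower, where 19.7% and 23.8% of all genes were. In input 0 of the 8 were called by limma-voom, with a median log2FC of 0.04. At an unadjusted p under 0.05 there was 1, against 2529 of 9423 genes tested. Summed over the list, input stood at 210.4 to 243.3 CPM in wildtype and 290.1 to 297.5 CPM in neuroblast-biased brains, which was not tested. In *Mettl3* null input the sum was 226.9 to 235.6 CPM. In meRIP it was 89.5 to 99.6 CPM in wildtype, 133.3 to 160.1 CPM in neuroblast-biased brains and 131.2 to 140.1 CPM without *Mettl3*. The last 2 groups thus overlapped in meRIP. Higher in meRIP were the elongation factors *mEFG1* (log2FC 1.42, SE 0.29, adjusted p 0.000255), *mEFTu2* (1.06, SE 0.29, adjusted p 0.00375) and *mEFTu1* (0.58, SE 0.21, adjusted p 0.0282). The release factor *mRF1* (1.16, SE 0.39, adjusted p 0.0180) was higher there as well. *TFAM* (1.13, SE 0.24, adjusted p 0.000323), which packages mitochondrial DNA, and the mitochondrial RNA polymerase *PolrMT* (1.02, SE 0.25, adjusted p 0.00190) were higher too, 2 of 5 transcription genes, of which 0 were called in input and 0 had an unadjusted p under 0.05 there. Summed in input, the 5 transcription genes stood at 109.4 to 125.2 CPM in wildtype and 159.7 to 185.4 CPM in neuroblast-biased brains, also not tested. None of 15 mitochondrial aminoacyl-tRNA synthetases, which load tRNAs with amino acids, was called in meRIP in this comparison. At an unadjusted p under 0.05 there were 2 of them, against 4859 of 9493 genes tested. Their summed input levels overlapped between these genotypes.

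The RNAs that the organelle itself encodes moved the other way. In meRIP 12 of 13 mitochondrial mRNAs were lower in neuroblast-biased brains and 0 higher, with a median log2FC of -2.20. Over all genes 23.8% were lower and 19.7% higher. Both mitochondrial ribosomal RNAs were lower too. Of the mRNAs, 2 had 0 counts in both neuroblast-biased meRIP libraries. Summed in meRIP, the mRNAs stood at 1462 to 1915 CPM in wildtype and 829 to 908 CPM in neuroblast-biased brains, a smaller fall than the median. In *Mettl3* null meRIP the sum was 1307 to 1451 CPM. In input 4 of the mRNAs were lower and 1 higher, where 8.09% and 5.28% of all genes were, and again both ribosomal RNAs were lower. The summed mRNAs stood at 6092 to 7022 CPM in wildtype input, 3462 to 4712 CPM in neuroblast-biased input and 3544 to 5228 CPM in *Mettl3* null input, so neuroblast-biased and *Mettl3* null brains overlapped. The summed ribosomal RNAs stood at 13190 to 13900 CPM in wildtype input and 9783 to 10640 CPM in neuroblast-biased input. In *Mettl3* null input they were lower still, at 6874 to 8268 CPM. Library preparation included depletion of ribosomal RNA, which bears on the levels of the ribosomal RNAs.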

How the data were processed

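RNA of dissected larval brain lobes was measured in 12 libraries, input and meRIP of 3 genotypes with 2 biological replicates each, grouped by the sample labels. The values are counts per gene, deposited by the authors without normalisation in 1 table of 17807 genes. According to its methods the study used Trimmomatic for trimming, STAR for alignment to BDGP6 and featureCounts for counting meRIP reads. kallisto is named for input, yet the input counts are whole numbers, so their counter is uncertain. Strandedness, duplicate removal and versions are not given in the sources used here, and counts are not independent molecules.

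Genes were named from Ensembl release 115 (BDGP6.54), which held 17710 of the identifiers. Its Release 6 coordinates were checked on the RefSeq genome: the start codon read ATG in 72 of 72 members.

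Low counts were removed with filterByExpr (minimum count 10) and libraries were scaled by TMM. Differences were tested with limma-voom (limma 3.58.1, edgeR 4.0.16, R 4.3.3), two-sided, with Benjamini-Hochberg adjustment over all genes tested in each comparison and a threshold of 0.05. The model held a mean for each group, over 6 input, 6 meRIP or, for ratios, all 12 libraries. Voom takes the counts and their depth into account, and the SE is that of the model. The procedure was tested on simulated data. As alternatives, the test was changed to DESeq2 1.42.0 or to edgeR's quasi-likelihood test, and the fit was repeated with library size alone, relative log expression (RLE) factors, no filter, a mean of at least 10 counts, the groups compared alone, a replicate block, and each library left out in turn.

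Named were all members called in a comparison (up to 20), genes chosen for their known role, the 3 highest and 3 lowest by input CPM per kb, members failing the filter, and *tko* and *bonsai*. Members, lists and tests were chosen with earlier results of these data known.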

Additional observations from a re-analysis of the deposited data

Results flagged for a closer look

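The meRIP to input ratio of *mRpL52* differed between wildtype and *Mettl3* null brains by the test of the difference itself, with a log2FC of -5.62 (limma-voom, adjusted p 0.0469). The call was lost in 14 of 20 alternatives, edgeR, DESeq2 and the replicate block among them, and the log2FC ran from -8.58 to -2.62. Its 2 *Mettl3* null input libraries held 31 and 0 counts, whereas its meRIP levels overlapped between these genotypes. The groups have 2 libraries each, too few to examine single libraries as outliers.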

How the results depend on the processing

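Of 48 calls of a member in a comparison, 10 were kept in all alternatives, and none changed sign. The counts of called members in meRIP of neuroblast-biased against wildtype brains, in input of *Mettl3* null against wildtype brains and in the ratio of neuroblast-biased against wildtype brains stayed within 1.5 times under every change of test, scaling, filter and groups fitted. Counts over all genes moved with the settings too. With library size alone, for example, genes lower in meRIP of wildtype against *Mettl3* null went from 580 to 2962. The other counts of members moved as follows, and the cause was not tested. For input of neuroblast-biased against wildtype (0 as reported) DESeq2 gave 7, a mean of 10 counts 1 and the compared groups alone 3. For input of neuroblast-biased against *Mettl3* null (3) edgeR gave 0 and DESeq2 10. For meRIP of wildtype against *Mettl3* null (3) library size alone gave 17. For meRIP of neuroblast-biased against *Mettl3* null (9) DESeq2, library size alone, RLE factors and the compared groups alone gave 5 each, and no filter 4. For the ratio of wildtype against *Mettl3* null (1) edgeR, both other filters and the compared groups alone gave 0. For the ratio of neuroblast-biased against *Mettl3* null (0) DESeq2 and no filter gave 1. For meRIP over input in wildtype (1) edgeR gave 2, DESeq2 5, library size alone 14, no filter 0 and the compared groups alone 12. In neuroblast-biased brains (11) edgeR gave 5, library size alone 26 and the compared groups alone 7. In *Mettl3* null brains (2) edgeR, library size alone, RLE factors and no filter gave 1, DESeq2 6 and the compared groups alone 0.

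With single libraries left out the counts ran from 0 to 3, 0 to 0 and 0 to 5 in the input comparisons (neuroblast-biased against wildtype, *Mettl3* null against wildtype, neuroblast-biased against *Mettl3* null). They ran from 0 to 6, 4 to 9 and 7 to 20 in meRIP (wildtype against *Mettl3* null, neuroblast-biased against *Mettl3* null, neuroblast-biased against wildtype) and from 0 to 1, 0 to 3 and 0 to 0 in the ratios in the same order. For meRIP over input they ran from 0 to 3 in wildtype, 4 to 20 in neuroblast-biased and 0 to 5 in *Mettl3* null brains. Where a group was left with 1 library, that library was assumed to vary like the others. In most of these comparisons the counts over all genes moved with the library left out as well.

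Input and meRIP RNA of a genotype came from split samples, but no source used here says that libraries with the same number share one. Deviations of libraries with the same number correlated by -0.03 to 0.04 across genotypes in input, 0.07 to 0.13 in meRIP and -0.01 to 0.08 between input and meRIP of a genotype. With the replicate block the count of called members was 2 in place of 0 for input of neuroblast-biased against wildtype, 0 in place of 1 for the ratio of wildtype against *Mettl3* null and for meRIP over input in wildtype, and 0 in place of 2 for meRIP over input in *Mettl3* null. It was 21 in place of 18 in meRIP of neuroblast-biased against wildtype. In input, 17 to 28 of 71 members differed by more than 2-fold between libraries of a group, and the cause was not tested.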
